A study of Mus musculus with 4 samples.

Results

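The genes described here encode the translation initiation factors (eIFs) and elongation factors (eEFs) of mouse cells, together with the regulators and modifying enzymes that carry the same gene names. They were chosen by symbol: every gene of the expression table whose symbol begins with Eif1 to Eif6, or with Eef1 or Eef2, was taken, except the eIF2 kinases named Eif2ak (4 genes) and pseudogenes marked -ps (0 genes). This gave 65 of the 16142 genes in the table, of which 50 were initiation factors and 15 were elongation factors. The study asks how Regnase-1, an RNase encoded by Zc3h12a, acts in Foxp3+ regulatory T cells. It uses an R111A mutant of Regnase-1 that MALT1 can no longer cut. Polyadenylated RNA was sequenced from 4 libraries of splenic CD4+ T cells that had been FACS sorted and then stimulated for 12 h with anti-CD3 (5 µg/mL) plus anti-CD28 (1 µg/mL). The WT group (2 libraries) came from wild-type B6 mice, and the R111A group (2 libraries) from Cd4CreERT2 LSL-R111A fl/fl mice. In those mice a CAG promoter in the Rosa26 locus drives R111A Regnase-1 with an EGFP reporter once Cre, under Cd4 control, has removed a stop cassette. Tamoxifen was given intraperitoneally at 75 mg/kg for 5 days, which is read here as the treatment of both groups: the labels name it after both genotypes, and the study describes sorted WT control T cells as coming from treated mice. The labels give neither the age nor the sex of the mice, and the study's methods give an age range and the use of both sexes for its experiments in general, not for each library. The labels also do not say whether the libraries of a group came from separate animals, so the p-values below measure spread between these libraries only. Unstimulated cells were not analysed here.

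Translation begins when eIF4F (the cap-binding protein eIF4E, the scaffold eIF4G and the helicase eIF4A) recruits a small ribosomal subunit that carries eIF3, eIF1, eIF1A and the initiator tRNA bound to eIF2, and this complex scans to the start codon. eEF1A then brings each aminoacyl-tRNA to the ribosome, the eEF1B subunits recharge eEF1A with GTP, and eEF2 moves the ribosome by a codon. Resting T cells make little protein, and stimulation through the T cell receptor and CD28 raises translation through mTORC1, which inactivates the eIF4E-binding repressors, and through Myc.

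The label of the R111A group was checked first on Zc3h12a (gene ID 230738). Its FPKM (fragments mapped to a gene, scaled by transcript length and by library size) was 17.0 in WT replicate 1 and 15.7 in WT replicate 2, against 196 and 131 in R111A replicates 1 and 2. Both R111A libraries were far above both WT libraries, with a log2 fold change of 3.22 ± 0.19 (SE, 2 against 2 libraries; adjusted p = 9.19e-06). The gene-level value does not separate the endogenous transcript from the transgene. Here and below, a fold change is R111A minus WT on log2(FPKM + 1), tested with limma and adjusted by Benjamini-Hochberg over the 9831 genes whose mean across libraries reached 1 FPKM. A gene was called at an adjusted p under 0.05. Adding 1 FPKM understates the change of genes with low values.

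The 4 libraries carried T cell markers, and other lineages were at low levels that differed between the groups. The 8 CD4+ T cell markers summed to 1806 and 1785 FPKM in the WT libraries and to 1496 and 1388 in the R111A libraries, with 2 called higher and 4 lower (Cd3d, 1 of those higher, was not called on TPM, without WT replicate 1 or without WT replicate 2, at adjusted p = 0.810, 0.292 and 0.204). Of those lower, Lck and Cd5 were not called without WT replicate 1 (0.178 and 0.262), WT replicate 2 (0.358 and 0.153) or R111A replicate 2 (0.0616 and 0.0855), nor under median-of-ratios (0.1305 and 0.129) or quantile scaling (0.395 and 0.348). The most abundant was Cd3g, at 454 and 465 FPKM in WT cells and 289 and 313 in R111A. Cd4 itself was at 158 and 131 in WT and 70.7 and 51.4 in R111A. Trat1, the other marker called higher, had the largest change of the 8 (2.09), at 5.11 and 4.7 in WT and 20.47 and 28.43 in R111A. Of these 8 markers 25% were called higher and 50% lower, against 21.2% and 32.1% of all genes. Of the 5 erythroid markers read, Hba-a1 made up most of the sum (0.66, 0.70, 12.85 and 13.0 FPKM in WT replicates 1 and 2 and R111A replicates 1 and 2), while Hba-a2 and Hbb-bs were listed at 0 in all 4 libraries and Alas2 was at or near 0. The 5 myeloid markers summed to 0.68 and 0.12 FPKM in WT cells and 4.56 and 4.26 in R111A, with Lyz2 the most abundant and Csf1r near 0. The 4 B cell markers read summed to 1.74 and 0.71 in WT and 4.69 and 4.33 in R111A, with Cd79a the most abundant in R111A and Ms4a1 and Pax5 near 0. The 3 NK cell markers stayed under 1 FPKM in sum (0.05, 0.02, 0.62 and 0.59), and Klra8, their most abundant gene in R111A replicate 2, was at 0 in both WT libraries. Cd8a was near 0, and the sum of Cd8a and Cd8b1 was 7.31 and 6.76 in WT and 3.88 and 4.46 in R111A. The regulatory T cell markers Foxp3 and Ikzf2 summed to 15.8 and 13.1 in WT and 5.21 and 6.22 in R111A, and Foxp3 was the more abundant in WT. The part of these marker differences in the results below was not tested.

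Stimulation markers also differed. Cd69 rose by a log2 fold change of 1.23, Cd44 fell (-1.16) and Il2ra was not called (called lower on TPM, adjusted p = 0.0111). Myc, whose protein drives transcription of many translation genes, was at 228 and 204 FPKM in WT cells and at 128 and 87.6 in R111A, and it fell (-1.02). The part of these differences in the results below was not tested either.

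Library totals moved with the groups. The sum over all genes was 801475 FPKM in WT replicate 1, 836143 in WT replicate 2, 1053551 in R111A replicate 1 and 1012215 in R111A replicate 2. The 78 cytosolic ribosomal protein genes held 37.0% and 38.5% of these sums in WT and 54.6% and 52.7% in R111A, and the remaining genes summed to 504831 and 513920 in WT cells and to 478487 and 479205 in R111A cells. No read counts were used here, so the reads behind each value are not known. Relative depth, read from the steps that single fragments leave in low values, was 1 in both WT libraries, 0.946 in R111A replicate 1 and 0.847 in R111A replicate 2. Each direction below was also read after 3 other scalings. Rescaling to TPM (each library divided by its own sum) moved the median log2 fold change of all tested genes from -0.12 to -0.42, so medians are also given relative to the all-gene median. The share of all calls that were higher was 39.8% on FPKM and 20.8% on TPM, against 47.4% after division by median-of-ratios factors (a library factor taken from the typical gene) and 46.9% after quantile normalization (every library given the same distribution).

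Most initiation factors were lower in R111A cells or not called, and few were higher. The repressor adaptor Eif4enif1 had the lowest fold change of all 61 tested members with 1 FPKM added (-1.91; with 0.1 FPKM added Eef2k was lower, at -2.13 against -1.95). The eIF4E-binding protein Eif4ebp3 had the highest (0.75), but Eif3h was above it with 5 FPKM added (0.64 against 0.47) and without WT replicate 2 (0.69 against 0.43). Of the 49 initiation factors tested, 25 fell and 3 rose. Of the 12 elongation factors tested, 5 fell and 1 rose. Among all genes tested, 32.1% fell and 21.2% rose, so the share of initiation factors that fell (51.0%) was above that background and the share that rose (6.12%) below it; under quantile normalization the share that fell was 32.7% against 26.7% of all genes. The elongation factors stood at 41.7% lower and 8.33% higher, from a class of 12 in which 1 gene is 8.33%. Without Eef2k, left out after its values were seen since it reached the filter through the WT libraries only, 4 of 11 elongation factors fell (36.4%), near the share of all genes. In bulk RNA, fewer cells of a type and less RNA per cell cannot be told apart. At a fold of at least 2, 6 initiation and 2 elongation factors (1 of them Eef2k, under 1 FPKM in R111A) fell, against 8.34% of all genes, and 0 members rose by limma (0 also at an unadjusted p under 0.05, since no member reached a log2 fold change of 1), against 8.52% of all genes. Both R111A libraries lay below both WT libraries for 34 initiation and 9 elongation factors (46.3% of all genes), and above them for 9 and 2 (32.0% of all genes).

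The call counts moved when single libraries were left out. Without WT replicate 1, 15 initiation and 3 elongation factors were called lower, and without WT replicate 2, 14 and 3. Without R111A replicate 1 the counts were 29 and 7, and without R111A replicate 2, 32 and 7. All genes called lower went from 3152 to 1957 and 1937 without the 2 WT libraries in turn. Initiation factors called higher numbered 1 without WT replicate 2 and 5 without R111A replicate 1, and the elongation factor called higher was lost without WT replicate 1 (0 called by limma). Initiation factors past 2-fold higher numbered 1 without WT replicate 1, and elongation factors past 2-fold lower numbered 1 without R111A replicate 1.

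**Figure D1:**
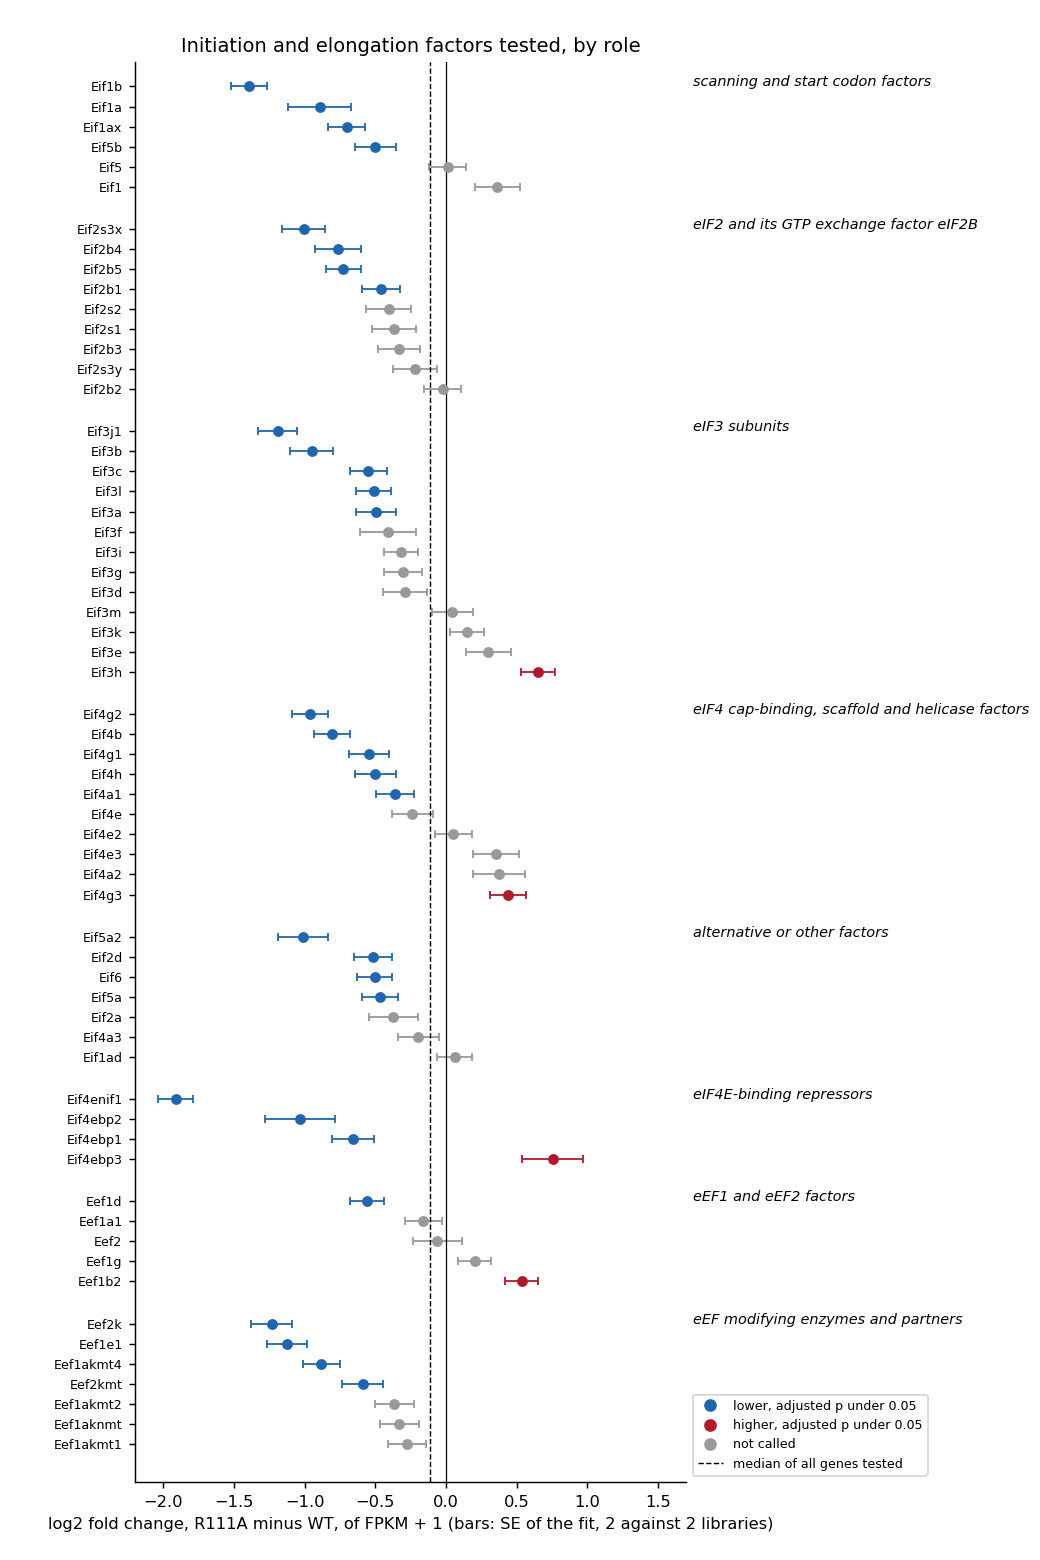
Log2 fold change (horizontal axis, R111A minus WT, of FPKM + 1) of the 61 tested members by role, with points for the fitted value, bars for its SE over 2 against 2 libraries, and colour for the call. Blue points (30 members lower) lie left of the dashed all-gene median at -0.12, and the 4 red points are Eif3h, Eif4g3, Eif4ebp3 and Eef1b2; no called member changed sign under TPM, median-of-ratios or quantile scaling.

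The plot of fold changes by role shows a spread inside each class that is wider than the distance between the classes. The 4 members that were not tested were listed at means under 1 FPKM. Eef1a2, the isoform of eEF1A of neurons and muscle, was listed at 0 in 3 libraries and at 0.02 FPKM in R111A replicate 2. Eif3j2 was at 0.58 in WT replicate 1 and at 0 elsewhere, Eef1akmt3 at 0.28 in WT replicate 1 and at 0 elsewhere. The readthrough gene Eef1akmt4-ece2 was at 0, 0.14, 0.56 and 0.87 FPKM in WT replicates 1 and 2 and R111A replicates 1 and 2.

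Of the 4 eIF4E-binding repressors, 3 fell and 1 rose. These proteins keep eIF4E from eIF4G or hold it on repressed mRNAs. Eif4enif1 (gene ID 74203, chr11:3202343-3244588), which encodes the eIF4E transporter that takes eIF4E to the nucleus and to P-bodies, was at 112 and 109 FPKM in WT replicates 1 and 2 and at 28.6 and 28.5 in R111A replicates 1 and 2. The groups were far apart and the replicates of each nearly equal, with a log2 fold change of -1.91 ± 0.12 (SE, 2 against 2 libraries; adjusted p = 1.24e-05). Eif4ebp2 (gene ID 13688) was at 55.1 and 52.5 in WT and at 35.1 and 18.75 in R111A. Both R111A values were below both WT values but differed from each other, and the fall of -1.04 ± 0.25 (adjusted p = 0.00771) is less exact than that of Eif4enif1. Its adjusted p ran from 1.41e-09 to 0.0628 over the alternatives tried, and only without a filter on low values did it miss 0.05.

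Eif4ebp1 (gene ID 13685), the 4E-BP best known as an mTORC1 target, was at 31.5 and 33.1 FPKM in WT cells and at 22.4 and 18.1 in R111A. Again the groups did not overlap, and the fall was -0.66 ± 0.15 (adjusted p = 0.00579; 0.0752 without WT replicate 2, within a range from 0.000123 to 0.0752 over the alternatives). Eif4ebp3 (gene ID 108112), the least abundant of the 3 binding proteins, was at 5.74 and 3.28 in WT and at 7.55 and 8.59 in R111A. It was the repressor that rose, by 0.75 ± 0.21 (adjusted p = 0.0169), with both R111A libraries above both WT libraries. That call was lost without WT replicate 2 (0.253), without R111A replicate 2 (0.0884), on TPM (0.0733) and with no filter (0.0871), in a range from 7.78e-05 to 0.253. The 4 repressors summed to 204 and 198 FPKM in WT and to 93.6 and 73.9 in R111A.

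Among the 6 factors of scanning and start codon choice, 4 fell and 0 rose by limma (0 at an unadjusted p under 0.05), while Eif1 and Eif5 were not called. Eif1 (gene ID 20918), whose protein keeps the scanning ribosome from starting at the wrong codon, was at 415 and 457 FPKM in WT cells and at 649.58 and 482 in R111A. Both R111A libraries were above both WT libraries, but at 0.36 ± 0.16 the difference was not called (adjusted p = 0.0884). It was called without R111A replicate 2 (0.00711) and with quantile normalization (0.0304), in a range from 0.00711 to 0.875. Its close paralogue Eif1b (gene ID 68969, chr9:120492606-120495327) was at 94.6 and 97.9 in WT and at 33.95 and 38.1 in R111A. Eif1b fell by 1.39 on the log2 scale, from groups that did not overlap (SE 0.13, adjusted p = 6.38e-05).

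The other 3 that fell were read after their values were seen. Eif1a, which promotes scanning and accurate start codon choice, was at 97.8 and 110.07 FPKM in WT cells and 42.45 and 72.1 in R111A. Eif1ax, its X-linked relative, was at 50.5 and 51.7 in WT and 29.6 and 32.5 in R111A. The groups of both were apart, though the R111A replicates of Eif1a differed from each other more than those of Eif1ax. Eif5b, the GTPase of subunit joining, fell by 0.50 on the log2 scale, a call lost without WT replicate 1 (adjusted p = 0.349), without WT replicate 2 (0.0591) and under quantile normalization (0.0579). Eif5, which triggers GTP hydrolysis on eIF2, was at 141 and 152 in WT and 139 and 158 in R111A, and its groups overlapped.

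eIF2 carries the initiator tRNA, and eIF2B reloads it with GTP. Of the 9 genes of both complexes, 4 fell (44.4%, against 32.1% of all genes) and 0 rose by limma (0 at an unadjusted p under 0.05). All 9 fold changes were negative, between -1.01 and -0.02, as were those of 5661 of the 9831 genes tested. Of the 9, Eif2b2 turned positive under median-of-ratios and quantile scaling, without WT replicate 2 and without R111A replicate 2, and Eif2s3y under quantile scaling. The gamma subunit of eIF2 is encoded on both sex chromosomes, and the copies behaved differently. Eif2s3x (gene ID 26905, chrX:94188709-94212651) was at 182 and 186 FPKM in WT cells and at 79.5 and 104 in R111A. Eif2s3y (gene ID 26908, chrY:1010562-1049134) was at 58.9 and 63.1 in WT and at 45.5 and 59.9 in R111A. The X-linked copy separated the groups and fell by 1.01 on the log2 scale (SE 0.15, adjusted p = 0.00078), whereas the Y-linked copy overlapped and was not called (-0.22 ± 0.16, adjusted p = 0.267). The Y-linked copy was called lower without R111A replicate 2 (0.0129) and on TPM (0.0104), in a range from 0.0104 to 0.977. The coding sequences of the pair are 86.3% identical, with a longest shared run of 34 bases, so a coding read longer than that run differs between them. They start from different sequences, shown here as 30-base windows across the RefSeq start site (GRCm38.p6, chrX:94212637-94212666 on the minus strand and chrY:1010580-1010609 on the plus strand), with the first 15 transcribed bases in capitals.
Eif2s3x: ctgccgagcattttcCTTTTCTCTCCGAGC
Eif2s3y: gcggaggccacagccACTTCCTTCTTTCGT

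Both windows are rich in C and T just after the start, at 80.0% and 86.7% of the 15 bases, against a median of 46.7% over all 27025 mouse promoters of the same table. The Eif2s3y window lies inside the gene coordinates given above, so its start is placed differently there. The Y-linked genes Ddx3y, Kdm5d and Uty were present in all 4 libraries and rose, by 0.51, 0.47 and 0.75, so Eif2s3y was the Y-linked marker of the 4 that did not. On TPM those 3 rises were not called (adjusted p = 0.380, 0.437 and 0.0588), and those of Ddx3y and Kdm5d were also lost without WT replicate 1 (0.188 and 0.238), WT replicate 2 (0.122 and 0.178) or R111A replicate 2 (0.0581 and 0.0691). Ddx3y was at 20.8 and 21.9 FPKM in WT cells and at 25.6 and 37.1 in R111A, while its X-linked partner Ddx3x, an RNA helicase of initiation, was at 201 and 201 in WT and at 91.7 and 142 in R111A and fell (-0.81). These genes were named after their values were seen, and their part in the result for Eif2s3x and Eif2s3y was not tested. Xist was not analysed here.

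Of the 5 eIF2B subunits 3 fell, and Eif2b2 and Eif2b3 were not called, nor were the alpha and beta subunits of eIF2. Of the 9 genes of the class, 9 were called lower on TPM, against 51.8% of all genes, and 3 under quantile normalization, against 26.7% of all genes. Eif2s2 (gene ID 67204), the beta subunit and the most abundant gene of the class, was at 210.06 and 234 FPKM in WT cells and at 145 and 193 in R111A. The groups did not overlap, but the difference of -0.41 ± 0.16 was not called (adjusted p = 0.0601). It was called without R111A replicate 2 (0.00558), on TPM (0.00139) and with the replicate as a block in the fit (0.0221), in a range from 0.00139 to 0.337. Eif2b2 (gene ID 217715), the beta subunit of eIF2B, was at 49.1 and 54.5 in WT and at 52.6 and 49.2 in R111A and overlapped (-0.02 ± 0.13, adjusted p = 0.893); it was called lower on TPM (0.0413, range 0.0413 to 0.912). The subunits Eif2b4, Eif2b5 and Eif2b1 fell by 0.77, 0.73 and 0.46 on the log2 scale, and they were named after their values were seen. The call of Eif2b1 was lost without WT replicate 1 (0.236), without WT replicate 2 (0.165) and under quantile normalization (0.102). Of these, Eif2b5 encodes the catalytic epsilon subunit, at 79.8 and 82.6 in WT and 49.35 and 47.8 in R111A.

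eIF3 is the large scaffold that bridges the small ribosomal subunit to eIF4G, and its call counts depended on the scaling. Of 13 tested, 5 fell, 1 rose and 7 were not called, and the share that fell (38.5%) was near that of all genes (32.1%). Without WT replicate 1, 2 subunits were called lower, without WT replicate 2, 3, and without R111A replicate 1, 9 were called lower and 2 higher. On TPM 9 were called lower and 1 higher, where 51.8% of all genes were lower. Eif3j1 (gene ID 78655, chr2:122028580-122053632), a loosely bound subunit near the decoding site, was at 129 and 131 FPKM in WT cells and at 51.25 and 61.8 in R111A. It fell by 1.19 on the log2 scale from groups that did not overlap (SE 0.14, adjusted p = 0.00019). Its copy Eif3j2 has an identical coding sequence over all 786 aligned bases, so how the reads were divided between Eif3j1 and Eif3j2 is uncertain, and values above belong to the pair rather than to either. Eif3h (gene ID 68135, chr15:51786563-51865461), a subunit that budding yeast lacks, was at 446 and 473 in WT and at 712 and 729.67 in R111A. It rose by 0.65 ± 0.12 (adjusted p = 0.00219), and both R111A libraries were above both WT libraries. Eif3h was the 1 of the 4 members called higher that was also called higher under TPM, median-of-ratios and quantile scaling.

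The other 4 subunits that fell were Eif3b, Eif3c, Eif3l and Eif3a, and they were named after their values were seen. Eif3b, the RNA-binding core subunit, was at 273 and 262 FPKM in WT cells and at 157 and 121 in R111A. It lay lower in both R111A libraries and fell by 0.95 on the log2 scale. Eif3c, Eif3l and Eif3a fell by 0.55, 0.51 and 0.50. Without WT replicate 1 none of these 3 was called by limma (adjusted p = 0.157, 0.164 and 0.1999), and without WT replicate 2 Eif3l (0.0519) and Eif3a (0.0574) were not. Under quantile normalization the same 3 were not called (0.0730, 0.0745 and 0.142). The subunits Eif3e, Eif3k and Eif3m, which were not called, had fold changes of 0.30, 0.15 and 0.04 that turned negative on TPM.

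In the eIF4 class of cap-binding proteins, scaffolds and helicases, 5 of 10 fell and 1 rose (50% and 10%, against 32.1% and 21.2% of all genes). With either WT library left out, the share called lower was near that of all genes. Those called lower numbered 2 without WT replicate 1 and 2 without WT replicate 2, with 0 higher by limma in both fits (0 and 1 at an unadjusted p under 0.05), and 2 rose without R111A replicate 1. Eif4a1 (gene ID 13681), the main RNA helicase of initiation, was at 1341 and 1317 FPKM in WT cells and at 951 and 1123 in R111A. Both R111A libraries were lower, but the fall of -0.36 ± 0.13 only just passed (adjusted p = 0.0453). It missed 0.05 without WT replicate 1 (0.212), without WT replicate 2 (0.174) and without R111A replicate 1 (0.0838), and under 5 further alternatives including median-of-ratios (0.114) and quantile scaling (0.184), in a range from 0.000605 to 0.212. Eif4g2 (gene ID 13690), a scaffold related to eIF4G that lacks the eIF4E-binding site, was at 181 and 186 in WT and at 88.8 and 98.3 in R111A. It fell by 0.96 on the log2 scale, with the groups well apart (SE 0.13, adjusted p = 0.000363).

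Eif4g3 (gene ID 230861), the second full-length eIF4G scaffold, was at 37.7 and 34.5 FPKM in WT cells and at 49.5 and 49.0 in R111A. Both R111A libraries were higher, and it rose by 0.44 ± 0.13 (adjusted p = 0.0196), a call that was lost without WT replicate 1 (0.152), without WT replicate 2 (0.299) and on TPM (0.516), in a range from 0.00594 to 0.516. The remaining members were named after their values were seen. The first scaffold, Eif4g1, was at 177 and 167 in WT and at 130.42 and 106 in R111A and fell (-0.55), a call lost without WT replicate 1 (0.113), without WT replicate 2 (0.0610) and under quantile normalization (0.0948). The helicase cofactors Eif4b and Eif4h fell by 0.81 and 0.50 on the log2 scale, and Eif4h was not called without WT replicate 1 (0.0604), without WT replicate 2 (0.181) or under median-of-ratios (0.05002) and quantile scaling (0.104). The cap-binding protein gene Eif4e was at 60.2 and 62.0 in WT and at 46.35 and 57.5 in R111A and was not called (-0.24). Eif4e was called lower on TPM (-0.57, adjusted p = 0.00633 by limma), and its fold change was -0.39 without R111A replicate 2.

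The remaining 7 initiation-named factors work in other steps, and 4 of them fell while 0 rose by limma (0 at an unadjusted p under 0.05). Without WT replicate 1, 2 were called lower, and without WT replicate 2, 1. Eif5a (gene ID 276770), the hypusine-bearing factor that helps ribosomes through proline-rich stretches and so acts in elongation despite its name, was the most abundant of all genes named Eif. It was at 2287 and 2431 FPKM in WT cells and at 1799 and 1618 in R111A. Both R111A libraries were lower and it fell by 0.47 on the log2 scale (SE 0.13, adjusted p = 0.0134; 0.101 without WT replicate 2, range 8.04e-05 to 0.101). Its paralogue Eif5a2 (gene ID 208691) was at 5.51 and 5.78 in WT and at 1.81 and 2.87 in R111A. It too fell from groups that did not overlap, by 1.01 (SE 0.18, adjusted p = 0.00166). Eif1ad (gene ID 69860), a nuclear protein with an eIF1A-like domain, was at 58.7 and 55.7 in WT and at 59.45 and 60.01 in R111A and was not called (0.06 ± 0.13, adjusted p = 0.701; negative on TPM). Eif6, which keeps the large ribosomal subunit from joining too early, fell by 0.51, a call lost without WT replicate 1 (0.0806), without WT replicate 2 (0.140) and under quantile normalization (0.0654), and it was named after its value was seen.

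Among the elongation factors proper, 2 subunits of the exchange factor moved in opposite directions and the other genes were not called. Of the 5 tested eEF1 and eEF2 genes, 1 rose (20%, against 21.2% of all genes), 1 fell (20%, against 32.1%) and 3 were not called. Their median of -0.06 became 0.03 with median-of-ratios factors and -0.40 on TPM. On TPM 3 fell (60%, against 51.8% of all genes) and 0 rose by limma (0 at an unadjusted p under 0.05). The median was 0.03 without WT replicate 1, -0.16 without WT replicate 2 and 0.18 without R111A replicate 2. Eef1a1 (gene ID 13627, chr9:78478453-78481724), which delivers aminoacyl-tRNA, was at 11777 and 10619 FPKM in WT cells and at 9444 and 10593 in R111A. Both R111A libraries were below both WT libraries, but the nearest pair was almost equal, and the difference of -0.16 ± 0.13 was not called (adjusted p = 0.327). It was called lower on TPM (0.00399) and with quantile normalization (0.00042; -1.01), which pulls the top of each library to a shared distribution, in a range from 0.00042 to 0.748. Eef2 (gene ID 13629, chr10:81176631-81182509), the translocase, was at 1541 and 1351 in WT and at 1633 and 1169 in R111A. Its R111A libraries were the highest and the lowest of the 4, and it was not called (-0.06 ± 0.17, adjusted p = 0.781; positive with median-of-ratios factors, and called lower on TPM at 0.0369, range 0.0369 to 0.926).

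eEF1B, the exchange factor of eEF1A, has alpha, delta and gamma subunits encoded by Eef1b2, Eef1d and Eef1g. Eef1b2 (gene ID 55949, chr1:63176831-63180486) was at 635 and 666 FPKM in WT cells and at 956 and 929.75 in R111A. Eef1d (gene ID 66656) was at 334 and 333 in WT and at 231 and 221 in R111A. Eef1g was at 1506 and 1439 in WT and at 1684 and 1702 in R111A. The groups did not overlap for any of the 3, with Eef1b2 and Eef1g higher and Eef1d lower in R111A. Eef1b2 rose by 0.53 ± 0.12 (adjusted p = 0.00556), a call lost without WT replicate 1 (0.0661) and on TPM (0.163), in a range from 0.00148 to 0.163. Eef1d fell by 0.56 on the log2 scale (SE 0.12, adjusted p = 0.00461), a call lost without WT replicate 1 (0.0637) or WT replicate 2 (0.0609), in a range from 6.2e-05 to 0.0637. Eef1g was not called (0.20 ± 0.12, adjusted p = 0.183; negative on TPM).

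Of the 7 tested enzymes and partners of the elongation factors, 4 fell (57.1%, or 3 of 6 without Eef2k, against 32.1% of all genes), 0 rose by limma (0 at an unadjusted p under 0.05) and 3 were not called. In all 7, both R111A libraries were below both WT libraries (46.3% of all genes). Those called lower numbered 3 without WT replicate 1 or WT replicate 2, and 6 without R111A replicate 1 or R111A replicate 2. Eef2k (gene ID 13631, chr7:120842642-120907219), the kinase that slows elongation by phosphorylating eEF2, was at 2.78 and 2.29 FPKM in WT cells and at 0.55 and 0.45 in R111A. Its log2 fold change was -1.23, a value that the added 1 FPKM makes smaller at such low levels (-2.13 with 0.1 FPKM added, -0.45 with 5 FPKM). It passed the filter at a mean of 1 FPKM only through the WT libraries, so a difference was built into its being tested and its fall is a description; without it 1 elongation factor was past 2-fold lower. Eef1e1 (gene ID 66143, chr13:38645691-38659028), a partner of the multi-tRNA synthetase complex and the most abundant gene of this class, was at 238 and 264 in WT and at 104 and 125 in R111A. It fell by 1.12 (SE 0.14, adjusted p = 0.000285), with the groups far apart. Eef1akmt1 (gene ID 68043), a lysine methyltransferase of eEF1A, was at 65.3 and 68.1 in WT and at 51.0 and 59.2 in R111A and was not called (-0.27 ± 0.13, adjusted p = 0.117). It was called lower without R111A replicate 2 (0.0139) and on TPM (0.0031), in a range from 0.0031 to 0.812. The methyltransferases Eef1akmt4 and Eef2kmt fell by 0.88 and 0.59, and they were named after their values were seen. Eef2kmt was not called without WT replicate 1 (0.0879) or WT replicate 2 (0.119).

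**Figure D2:**
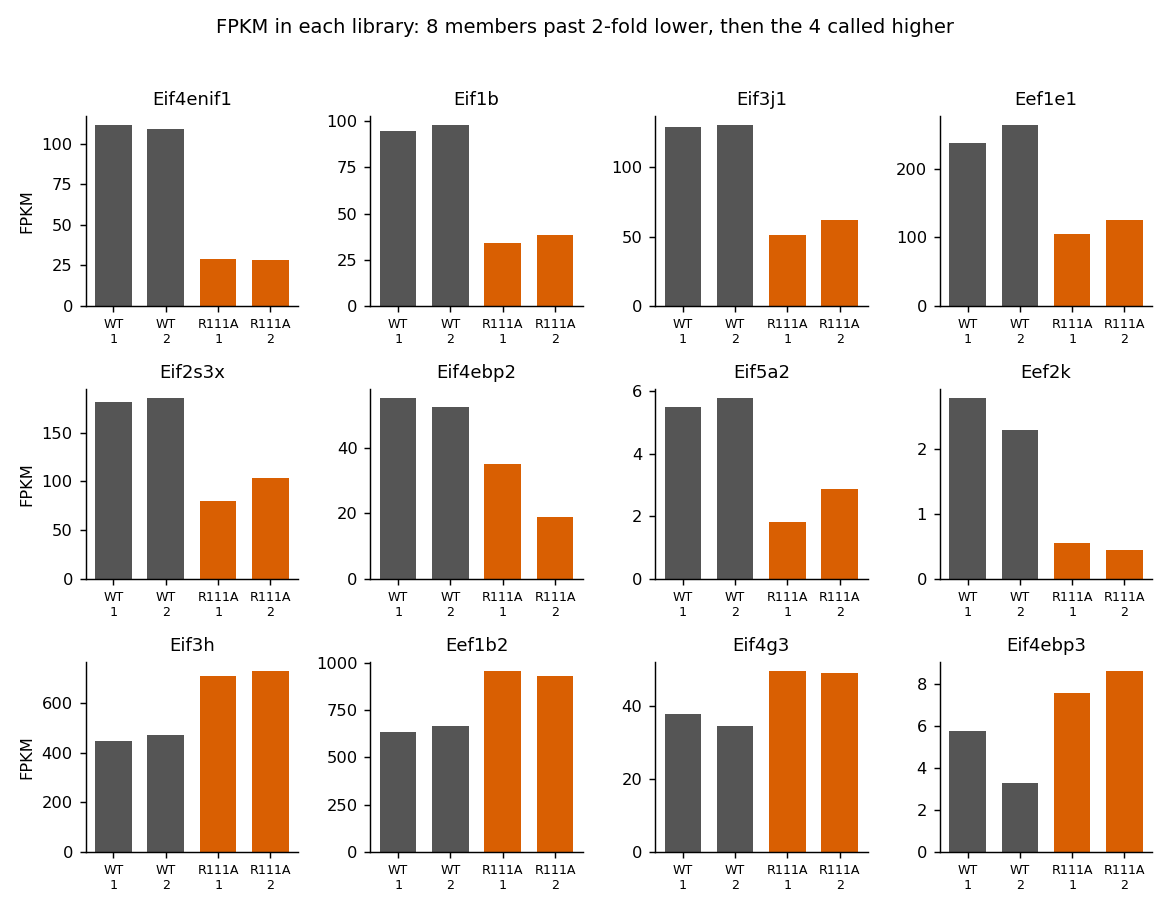
FPKM (vertical axis, from 0, each panel on its own scale) in WT replicates 1 and 2 (grey bars) and R111A replicates 1 and 2 (orange bars) for the 8 members that fell past 2-fold and the 4 members that rose. In each of the 12 panels both orange bars lie on 1 side of both grey bars, as for Eif4enif1 (112 and 109 against 28.6 and 28.5). The 12 were picked by their calls on these same libraries, so this separation was close to fixed by the choice. Of all genes tested, 46.3% had both R111A libraries below both WT libraries and 32.0% had them above.

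Set against each other inside each library, elongation factors gained a little on initiation factors. The 50 initiation factors summed to 12012 and 12142 FPKM in the WT libraries and to 10022 and 10109.8 in the R111A libraries. The 15 elongation factors summed to 16220 and 14865 in WT and to 14186 and 14879 in R111A. The initiation sums were thus lower in both R111A libraries while the elongation sums overlapped. The elongation sum divided by the initiation sum was 1.35 and 1.22 in WT and 1.42 and 1.47 in R111A, which a single scaling factor per library does not move. The R111A ratios were above both WT ratios, by 0.17 on the log2 scale with a replicate SD of 0.08, and the exact two-sided permutation p was 0.333, the smallest that 2 against 2 libraries allow. Without WT replicate 2 the difference was 0.10. It was also 0.08 when Eif5a and Eif5a2 were counted as elongation factors.

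Eef1a1 alone held 72.6% and 71.4% of the elongation sum in WT and 66.6% and 71.2% in R111A. Without it, the ratio was 0.370 and 0.350 in WT and 0.473 and 0.424 in R111A, a difference of 0.32. Relative to every transcript other than those of ribosomal proteins, initiation factors made up 2.38% and 2.36% in WT and 2.09% and 2.11% in R111A, and elongation factors 3.21% and 2.89% in WT and 2.96% and 3.10% in R111A. The initiation share was lower in both R111A libraries, and the elongation share overlapped. As a share of all FPKM, both classes were lower in R111A: initiation factors at 1.499% and 1.45% against 0.951% and 0.999%, and elongation factors at 2.02% and 1.78% against 1.35% and 1.47%.

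**Figure D3:**
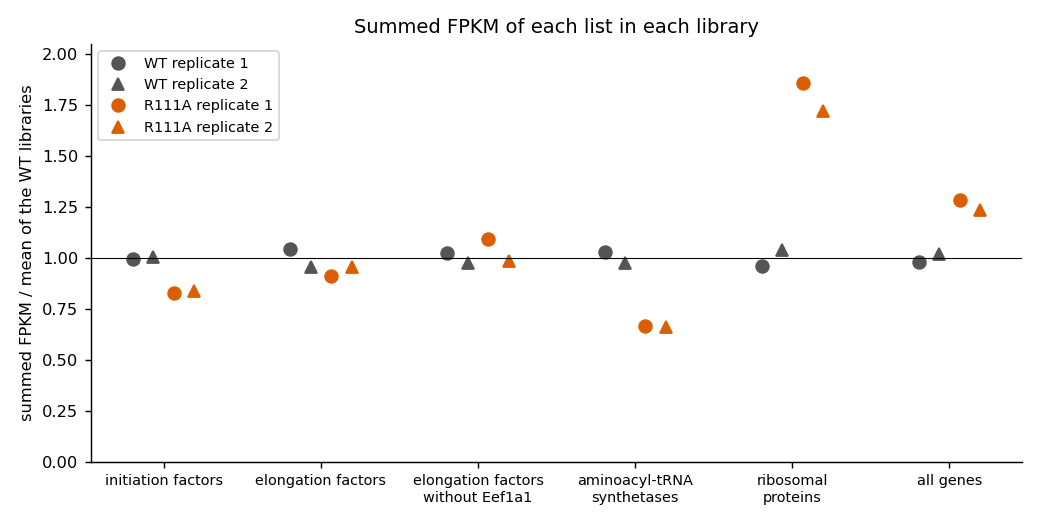
Summed FPKM of each list in each library, divided by the mean of the WT libraries (vertical axis, from 0), with 1 point for each of 2 WT (grey) and 2 R111A (orange) libraries. Initiation factors and aminoacyl-tRNA synthetases lie lower in both R111A libraries, elongation factors overlap with WT, and ribosomal proteins lie higher.

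Gene by gene, the classes differed less than their sums. The median log2 fold change was -0.41 for initiation factors and -0.35 for elongation factors, against -0.12 for all genes tested. Relative to the all-gene median these were -0.29 and -0.23 on FPKM, -0.32 and -0.25 on TPM, -0.28 and -0.23 under median-of-ratios scaling, and -0.21 and -0.25 under quantile normalization. Thus the initiation median lay lower under 3 scalings and the elongation median lay lower under quantile normalization. That last order rested on Eef2k. Without it, the elongation median relative to all genes was -0.209 under quantile normalization, against -0.215 for initiation factors. The enzymes and partners had a median of -0.59 (-0.48 without Eef2k), against -0.06 for the eEF1 and eEF2 factors themselves. For these, the median was 0.05, 0.02, 0.06 and 0.02 above the all-gene median under the same 4 scalings. The median of the core initiation factors, those of the scanning, eIF2 and eIF2B, eIF3 and eIF4 classes, was -0.39. Over the roles, the medians were -0.60 for scanning factors, -0.41 for eIF2 and eIF2B, -0.32 for eIF3, -0.30 for eIF4, -0.47 for the other factors and -0.85 for the repressors, and each of these stayed negative under all 4 scalings. With 1 library left out, these medians ran from -0.67 to -0.52, -0.56 to -0.20, -0.42 to -0.19, -0.37 to -0.16, -0.52 to -0.42 and -1.14 to -0.55 in that order. The shares that fell were 66.7%, 44.4%, 38.5%, 50%, 57.1% and 75.0% in the same order, from classes of 4 to 13 tested genes, against 32.1% of all genes.

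**Figure D4:**
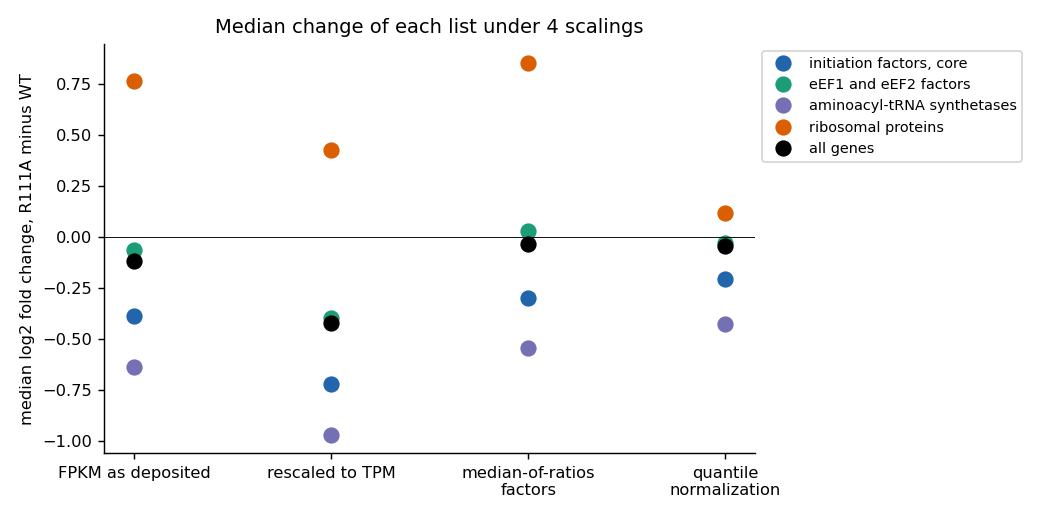
Median log2 fold change (vertical axis, R111A minus WT) of core initiation factors, eEF1 and eEF2 factors, aminoacyl-tRNA synthetases, ribosomal proteins and all tested genes, 1 point per list under each of 4 scalings (horizontal axis). Core initiation factors and synthetases lie below all genes under each scaling, while eEF1 and eEF2 factors lie within 0.1 of all genes and turn from negative to positive (0.03) with median-of-ratios factors.

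Of the 30 members that fell on FPKM, 21 were also called lower under TPM, median-of-ratios and quantile scaling (16 initiation and 5 elongation factors). Eef2k is among these 5, although it reached the filter through the WT libraries only. Counts moved more than directions did: 37 initiation factors were lower on TPM (75.5%), 23 under median-of-ratios scaling (46.9%) and 16 under quantile normalization (32.7%). For elongation factors the counts were 10, 5 and 6. Of all genes, 51.8%, 27.0% and 26.7% were lower under these scalings, so under quantile normalization the share of initiation factors was near that of all genes. In eIF3, 9 of 13 were lower on TPM, 5 under median-of-ratios scaling and 2 under quantile normalization, and in the eIF4 class 6, 3 and 2 of 10, against 5 on FPKM in each class.

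Paralogues and partner subunits shifted against each other inside a library, a comparison that a single factor per library, as in TPM or median-of-ratios scaling, cannot move. Ratios of FPKM were taken for 11 pairs chosen after the values were seen, so they are descriptions. Eif2s3y stood at 0.324 and 0.340 of Eif2s3x in WT and at 0.572 and 0.577 in R111A, a log2 difference of 0.79. Eif1b stood at 0.228 and 0.214 of Eif1 in WT and at 0.0523 and 0.0791 in R111A (-1.78). Eif4g3 stood at 0.213 and 0.206 of Eif4g1 in WT and at 0.380 and 0.464 in R111A (1.00). For all 3 the R111A libraries were on 1 side of the WT libraries. Single genes did so often, with both R111A libraries above for 32.0% and below for 46.3% of all genes.

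The helicase pair followed the same form, with Eif4a2 at 0.143 and 0.167 of Eif4a1 in WT and at 0.233 and 0.286 in R111A (0.74). Eif3h stood at 1.63 and 1.81 times Eif3b in WT and at 4.54 and 6.03 times in R111A (1.61), and Eef1b2 at 1.90 and 2.002 times Eef1d in WT and at 4.13 and 4.199 times in R111A (1.09). The ratio of Eif1a to Eif1ax overlapped between the groups, at 1.94 and 2.13 in WT and 1.44 and 2.22 in R111A. The ratio of Eif4e2, a cap-binding protein that represses mRNAs, to Eif4e overlapped as well, at 0.946 and 0.855 in WT and 1.299 and 0.936 in R111A. Coding identity was 81.3% for Eif1b and Eif1, 78.1% for Eif4a2 and Eif4a1, 85.5% for Eif1a and Eif1ax and 65.1% for Eif4g3 and Eif4g1, and of the 10 pairs whose coding sequences were aligned only Eif3j1 and Eif3j2 shared a run longer than 34 bases. Eif3h and Eif3b, Eef1b2 and Eef1d, and Eef2k and Eef2 were not aligned.

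**Figure D5:**
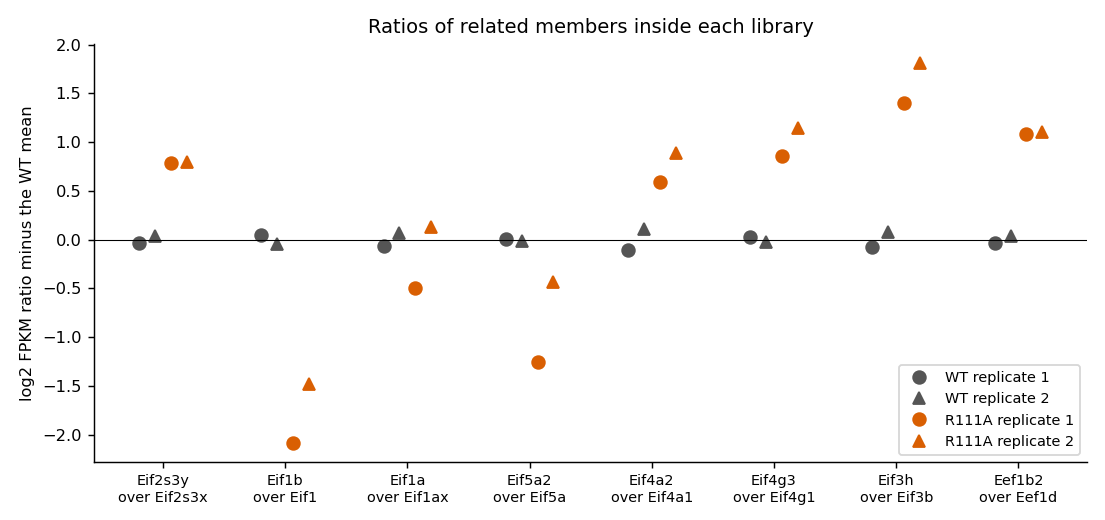
Log2 ratio of FPKM of 2 related members inside each library, minus the mean of the WT libraries (vertical axis), for 8 pairs, with 1 point for each of 2 WT (grey) and 2 R111A (orange) libraries. The orange points lie on 1 side of the grey points for 7 pairs and overlap them for Eif1a over Eif1ax. The pairs were chosen after their values were seen. Eif4e2 over Eif4e, which overlapped, and Eif4ebp1 over Eif4ebp2 and Eef2k over Eef2, which did not, are not shown. Among single genes tested, both R111A libraries lay above both WT libraries for 32.0% and below them for 46.3%.

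Promoters of these genes were read because many members fell. RefSeq promoters (GRCm38.p6, 250 bases before to 50 bases after the start site, 1 for each gene) were available for 50 of the 65 members. The E-box CACGTG, the letters that Myc with Max and other factors can bind and which read the same on both strands, was in 13 of these 50 (26.0%), against 7.24% of all 27025 promoters and 10.97% of the 8041 promoters of tested genes. It was in 8 of 39 initiation factor promoters (20.5%) and 5 of 11 elongation factor promoters (45.5%). These 5 belong to the translocase gene Eef2 and to Eef2k, Eef1aknmt, Eef1akmt4 and Eef1akmt4-ece2 of the enzyme and partner class, where Eef1akmt4 and Eef1akmt4-ece2 share the same window. The entries of the elongation factors Eef1a1, Eef1a2 and Eef1b2 lacked the motif. By call, it was in 8 of 25 promoters of members that fell (32.0%), in 4 of 21 of members not called (19.0%) and in 0 of 2 of members that rose. Those 8 include Eef2k, which reached the filter through the WT libraries only, and Eif3a, Eif4a1, Eif4g1 and Eif4h, which were not called under quantile normalization. The motif was in 5 of 57 promoters of ribosomal protein genes (8.77%) and in 4 of 13 promoters of aminoacyl-tRNA synthetase genes (30.8%). A match is a description of letters, and binding was not measured. The windows below, with the motif in capitals, are shown because they belong to members that fell (Eif1b, Eef2k, Eif4g1) and to the translocase gene that was not called (Eef2). They lie at chr9:120492570-120492599, chr7:120842788-120842817, chr16:20672661-20672690 and chr10:81176576-81176605 on the plus strand.
Eif1b: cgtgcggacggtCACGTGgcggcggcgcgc
Eef2k: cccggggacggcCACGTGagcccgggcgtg
Eif4g1: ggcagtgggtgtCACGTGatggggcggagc
Eef2: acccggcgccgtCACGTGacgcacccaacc

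The motif began 24 bases before the start site of the RefSeq promoter entry in Eif1b, 31 in Eef2k, 54 in Eif4g1 and 43 in Eef2. In Eif4g1 a second copy began 16 bases after the start site. For Eef2k the start site and the motif lie inside the gene coordinates given above, so its start is placed differently there. The start sites of Eif2s3y and Eif4enif1 also lie inside the gene coordinates given above. Eif1, the paralogue of Eif1b, had a promoter entry without the motif. The pyrimidine tract (a run of C and T at the very start of the transcript) known from mRNAs of ribosomal proteins and elongation factors was read as the share of C or T in the first 15 bases. Its median was 46.7% over the 39 initiation factor promoters, 60.0% over the 11 elongation factor promoters and 60.0% over the 57 ribosomal protein promoters, against 46.7% over all promoters. Among the elongation factors proper, Eef1a1, Eef1b2 and Eef2 were at 40.0%, 33.3% and 46.7%, at or below the median over all promoters, and the untested Eef1a2 was at 66.7%. The other elongation entries, at 60.0% or 66.7%, belong to enzymes and partners. The values for single genes depend on the annotated start site, which may differ from the start used in these cells. The start windows of Eif4enif1, which fell, of Eef1b2, which rose, and of Eef1a1, which was not called, are given as examples, with the first 15 transcribed bases in capitals (chr11:3202338-3202367 on the plus strand, chr1:63176816-63176845 on the plus strand and chr9:78481710-78481739 on the minus strand).
Eif4enif1: atgacgcgtgggaacGCGGCGCCCTTCCTT
Eef1b2: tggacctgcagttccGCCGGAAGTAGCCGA
Eef1a1: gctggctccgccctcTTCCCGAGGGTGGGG

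C or T made up 73.3% of these 15 bases in Eif4enif1, 33.3% in Eef1b2 and 40.0% in Eef1a1.

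Genes that act on these factors were read in the same fit. Of 9 genes for eIF2 kinases, phosphatase subunits and partners, 2 rose (22.2%) and 3 fell (33.3%), shares near those of all genes (21.2% and 32.1%), with a median of -0.11 against -0.12 for all genes (0.00 under quantile normalization, and from -0.24 to 0.00 with 1 library left out). Ppp1r15a, which targets a phosphatase to eIF2, was at 22.5 and 23.9 FPKM in WT cells and at 73.3 and 49.8 in R111A, and Eif2ak3, the endoplasmic reticulum kinase of eIF2, was at 4.52 and 4.02 in WT and at 10.55 and 9.28 in R111A. Both lay apart from WT and rose, by 1.34 and 1.05, and the phosphatase gene Ppp1cc fell (-0.88). The other 2 that fell, Eif2ak4 and Ppp1r15b, were not called without WT replicate 1 (0.0961 and 0.128) or WT replicate 2 (0.0678 and 0.259), nor Ppp1r15b under quantile normalization (0.0584), and 3 rose and 4 fell without R111A replicate 1. Of 15 tested genes of mTORC1 and MNK signalling to eIF4, 4 rose and 2 fell (26.7% and 13.3%, against 21.2% and 32.1% of all genes). On TPM 4 rose and 6 fell (40%, against 51.8% of all genes). Their median was -0.02 on FPKM, and positive with median-of-ratios factors, with quantile normalization and without R111A replicate 2. The genes with the largest changes were the mTORC1 inhibitors Ddit4 (1.52), Sesn2 (1.38) and Sesn1 (1.18). The fourth that rose on FPKM was the mTORC1 activator Rheb (0.97). The 2 that fell on FPKM were the inhibitors Tsc2 (-0.47) and Sesn3 (-0.44). Rheb, Tsc2 and Sesn3 were named after their values were seen. Tsc2 and Sesn3 were not called without WT replicate 1 (0.353 for each), without WT replicate 2 (0.104 and 0.155) or under median-of-ratios (0.0809 and 0.0593) and quantile scaling (0.0685 and 0.0771), nor was Tsc2 without R111A replicate 2 (0.0829). Of 12 genes for hypusine (the Eif5a modification) and diphthamide (the Eef2 modification), 1 rose (8.33%, against 21.2% of all genes) and 5 fell (41.7%, against 32.1%; median -0.22, from -0.35 to -0.15 with 1 library left out; by limma 0 rose without WT replicate 1, without WT replicate 2 and on TPM, with 0, 1 and 0 at an unadjusted p under 0.05, and 3 fell without WT replicate 2), led by the polyamine synthases Sms (-1.05) and Srm (-0.77) and by Dnajc24 (-0.66; adjusted p = 0.0101, 0.0741 without WT replicate 2, range 0.000279 to 0.0741).

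Of 19 poly(A)-binding proteins, mRNA helicases and initiation partners, 2 rose and 11 fell (10.5% and 57.9%, against 21.2% and 32.1% of all genes; median -0.43), with Pabpc1l at 2.19 (a gene under 1 FPKM in WT that passed the filter only through the R111A libraries, so its rise is a description and 1 of 18 rose without it), Pabpc4 at -1.30 and Larp4 at -1.20. Those called lower numbered 6 without WT replicate 1 and 7 without WT replicate 2 or under quantile normalization, and Pdcd4, the other that rose, was not called without WT replicate 1 (0.314), without WT replicate 2 (0.311) and on TPM (0.802). The termination and recycling factors had 1 of 5 higher (Hbs1l, 0.71; adjusted p = 0.00385, 0.0541 without WT replicate 1, range 3.96e-05 to 0.0541) and 3 lower (20% and 60%, against 21.2% and 32.1% of all genes; median -0.56, or -0.32 under quantile normalization and from -0.81 to -0.30 with 1 library left out; 2 lower without WT replicate 1, without WT replicate 2 and under quantile normalization), with the release factor genes Etf1 (-0.90) and Gspt1 (-0.78) among them. The mitochondrial counterparts of these factors had 1 of 9 higher and 3 lower (33.3%, against 32.1% of all genes; median -0.27, from -0.36 to -0.20 with 1 library left out). The 1 that rose, Mtif3, was not called without WT replicate 1 (0.398), without WT replicate 2 (0.141) and on TPM (0.466), and 5 were lower without R111A replicate 2. The 3 that fell were the elongation factors Tsfm (-1.27), Gfm1 (-0.997) and Tufm (-0.84). The 20 cytosolic aminoacyl-tRNA synthetases, which charge the tRNAs that eEF1A carries, summed to 2151 and 2037 FPKM in WT and to 1389 and 1384 in R111A. Of these, 14 fell (70%, against 32.1% of all genes) and 0 rose by limma (0 at an unadjusted p under 0.05; median -0.64), with Mars1 (-1.20), Vars (-0.90) and Iars (-0.86) lowest. Without WT replicate 1, 8 were called lower, without WT replicate 2, 11, and under quantile normalization 10. The ribosomal protein genes went the opposite way from the factors that fell, with 65 of 77 tested higher (84.4%, against 21.2% of all genes). By limma 0 were lower (1 at an unadjusted p under 0.05), and their median was 0.76. Under quantile normalization that median was 0.12, with 29 higher and 8 lower (37.7% and 10.4%, against 23.6% and 26.7% of all genes).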

How the data were processed

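RNA-seq of 2 WT and 2 R111A libraries was used. Per the labels, the authors aligned reads to mm10 (Bowtie2, version 2.4.4) and quantified genes by RSEM (version 1.2.28). The authors deposited 1 table of FPKM values, of which 0 per-sample columns were left out here. Depth in reads is not known. The authors' DESeq2 test on counts was not repeated. Genes whose mean reached 1 FPKM were tested on log2(FPKM + 1) in limma (version 3.58.1, R 4.3.3; lmFit, then eBayes with its trend option), and p-values were adjusted by Benjamini-Hochberg. The procedure was tested on simulated data. The same FPKM to the 2 decimals given, with no tolerance, was found for 0.661% of tested genes in the WT pair and 0.234% in the R111A pair.

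The members and lists were chosen with earlier results of these data known. The genes named were, in each role, the member with the highest mean FPKM and those with the highest and lowest fold change, every member called past 2-fold, Eif4ebp1, Eif4ebp2, Eif4ebp3, Eef2k, Eef1a1, Eef2, Eif2s3x and Eif2s3y, and up to 3 called genes with the largest changes in each other list. Members named outside this rule, markers and pairs of members were chosen after their values were seen. The ratio of sums was compared by an exact two-sided permutation test. Alternatives changed the pseudocount (0.1 or 5 FPKM), the filter (none, or a mean of 5 FPKM), the scaling (TPM, median-of-ratios, quantile) or the model (replicate block, eBayes without trend, robust eBayes). Further ones left out each library in turn, kept core factors alone, took Eef1a1 out of the elongation sum, or moved Eif5a and Eif5a2 to the elongation factors.

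Promoters came from RefSeq (GRCm38.p6), and coding sequences and coordinates from RefSeq and GENCODE M21 annotation of GRCm38. Python 3.11.15 with numpy 2.4.6, pandas 2.3.3, biopython 1.88 and matplotlib 3.10.9 did the rest.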

Additional observations from a re-analysis of the deposited data

How the results depend on the processing

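Of 47 genes named by rule, 30 kept their call in every one of the 14 settings that gave a value and 17 changed call in at least 1. None of those called changed sign, while 4 that were not called did so in at least 1 setting (Eef2, Eif1ad, Eif2b2 and Eif2s3y). Values that moved are given by setting, and the cause was not tested except where fewer genes or libraries entered. On TPM, 1335 genes were called higher and 5096 lower, with 1749 past 2-fold lower. Initiation factors then had 1 higher and 13 past 2-fold lower, elongation factors 0 higher (0 at an unadjusted p under 0.05, limma) and 10 lower, and the medians were -0.42 for all genes, -0.74 for initiation and -0.67 for elongation. With median-of-ratios factors, 3 initiation factors were past 2-fold lower and the medians were -0.033, -0.32 and -0.26. With quantile normalization, 5 initiation factors were higher, 16 lower and 3 past 2-fold lower, with medians of -0.043, -0.26 and -0.30. A pseudocount of 5 FPKM gave 386 genes past 2-fold higher and 402 lower, 3 initiation and 1 elongation factor past 2-fold lower, an all-gene median of -0.081 and an elongation median of -0.30. With 0.1 FPKM the all-gene median was -0.13. A filter at 5 FPKM left 521 genes past 2-fold higher, 1 elongation factor past 2-fold lower and an all-gene median of -0.15. Leaving out Eef2k, an alternative chosen after seeing the data, gave 1 elongation factor past 2-fold lower. No filter gave an all-gene median of 0, an elongation median of -0.27 and 2 elongation factors higher. The replicate block gave 2236 genes higher and 3358 lower, 4 and 28 initiation factors and 1 and 6 elongation factors; libraries with the same number share only that number (r = 0.111 between their residuals over genes, from 2 pairs). The elongation median was -0.062 for core factors and -0.42 with Eif5a and Eif5a2, and the log2 ratio of elongation to initiation sums was 0.32 without Eef1a1 and 0.077 with Eif5a and Eif5a2.

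Without each library in turn, the lone library of a group is assumed to vary like the other group. Genes called lower ran from 1937 to 3790, initiation factors higher from 1 to 5, lower from 14 to 32 and past 2-fold higher from 0 to 1, elongation factors higher from 0 to 1, lower from 3 to 7 and past 2-fold lower from 1 to 2. The medians ran from -0.13 to -0.10 for all genes, -0.48 to -0.41 for initiation and -0.42 to -0.33 for elongation. FPKM values give no read depth, so the precision of low values such as those of Eef2k and Eif5a2 is not known.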
